A study of Mus musculus with 12 samples.

Results

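Bcor, Hnrnpa1, Ager and Zfp410 are protein-coding genes for which RefSeq also lists transcripts classed as non-coding, and the probes described here were designed to those non-coding transcripts. A probe was taken when its name held an NR_ or XR_ accession that RefSeq assigns to 1 of these 4 genes. The array held 1 such probe per gene, so 4 probes of 97836 were described, and all 4 entered the set of 72515 features that were tested. The 4 genes were picked because of their values in these same spleens: Bcor for OVA at day 28 against day 14, Hnrnpa1 for OVA against control at day 28, Ager for OVA against control at day 14, and Zfp410 for OVA at day 28 against both control and day 14. Those differences are therefore given below as a description with no test, and tests are given only for the comparisons on which a gene was not picked. Most of these tests still share a group with the comparison that picked the gene, so the choice can bias their p-values. Only Bcor between controls, Hnrnpa1 for OVA against control at day 14 and Ager for OVA against control at day 28 share none.

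RNA came from the spleens of female BALB/c mice, 6 weeks old, that received OVA (ovalbumin, an egg-white protein used to sensitise mice) or normal saline by intraperitoneal injection. The OVA dose was 2 mg/kg, injected 3 times (days 1, 3 and 5). Spleens were taken on day 14 (2 control and 4 OVA arrays) or on day 28 (2 control and 4 OVA arrays). No allele, transgene or other agent is named in the labels. The labels name no housing or litter, so that p-values measure the spread between these spleens and arrays, and the number of arrays limits the precision.

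A coding gene can give non-coding transcripts by alternative splicing, for example by skipping an exon or keeping an intron, and many such transcripts are targets of nonsense-mediated decay. The proteins of the 4 genes have different roles. BCOR is a corepressor of BCL6 and a subunit of a variant Polycomb repressive complex, known in the spleen for its part in germinal centre B cells. ZFP410 is a zinc-finger transcription factor whose best known target is Chd4, a chromatin remodeller gene. hnRNP A1 is an RNA-binding protein that acts on splice-site choice and RNA export. AGER, also called RAGE, is a cell-surface receptor of the immunoglobulin superfamily that binds advanced glycation end products and alarmins such as HMGB1, and it is best known from the lung. Whether these 4 probes also read the coding mRNAs was not tested, since the probe sequences were not used here. In whole spleen, fewer cells of a type and less RNA per cell cannot be told apart.

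Levels are log2 processed signal minus the 75th percentile of the array, so a level of 0 is the signal that 1 in 4 spots exceeds. A probe is well above background when the scanner software set that flag on all its spots on an array. The 4 groups lay on 3 slides: all controls on 1 slide, the OVA arrays of day 14 on another and those of day 28 on the third. For every comparison with an OVA group, the slide and the group cannot be told apart. The 75th percentile ran from 483.8 to 549.3 signal units on the day 28 OVA arrays and from 266.7 to 368.1 on the other 8. The mean of 8 spike-in RNAs, set against that percentile, was 2.29 to 2.47 on control, 2.45 to 2.69 on day 14 OVA and 2.42 to 2.55 on day 28 OVA arrays (log2). Control day 14 replicate 1 had 27 of 1901 blocks of neighbouring spots that departed from the other arrays by over 1 on the log2 scale. Around the 6 spots of the 4 probes the median departure on any array lay between -0.15 and 0.15. On OVA day 14 replicate 2, 57.5% of spots were well above background, against 72.4% to 80.0% on the other arrays. No probe named with an NR_ or XR_ accession belonged to any of 30 cell type marker genes of spleen. The same held for 62 partner, ligand and family genes of the 4 proteins. Probes under other names were not searched for these genes, so neither the cell makeup nor those pathways were described.

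**Figure D1:**
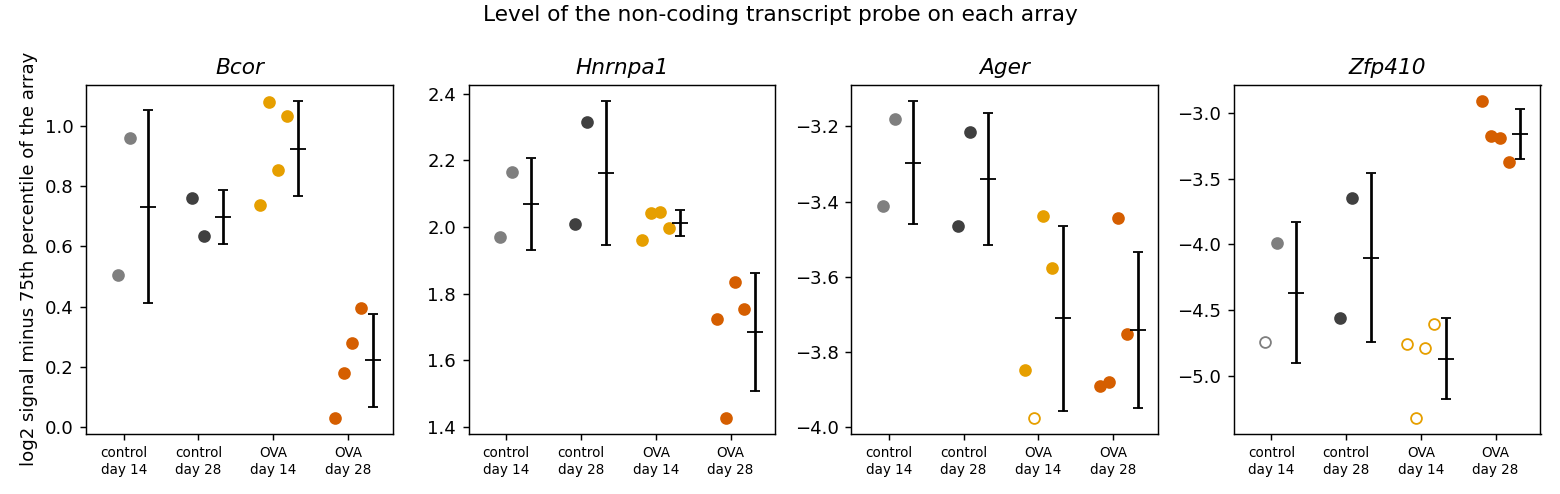
Each point is the level of 1 probe on 1 array, as log2 signal minus the array's 75th percentile, in the control and OVA groups of days 14 and 28. Open points were not well above background; the bars beside them show the group mean ± SD (n = 2 for control, n = 4 for OVA). The 4 Bcor points of OVA day 28 sit between 0.03 and 0.39, below all other arrays, while those of Zfp410 sit between -3.37 and -2.91, above all other arrays.

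The Bcor transcript (NR_045434, gene on the X chromosome) was well above background on all 12 arrays and was lowest in OVA spleens at day 28. Its level was 0.03, 0.18, 0.28 and 0.39 on the 4 OVA arrays of day 28. On the 4 OVA arrays of day 14 it was 0.74, 1.08, 0.85 and 1.03. The OVA arrays of the 2 days did not overlap, and the mean was 0.22 ± 0.15 (SD, n = 4) at day 28 against 0.92 ± 0.16 (SD, n = 4) at day 14. This difference, by which Bcor was picked, was -0.70 ± 0.12 (SE, log2), or 1.63-fold, and it is given with no test. Of all features, 34.1% passed in that comparison, and 21% were lower at day 28 without overlap.

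The control levels of Bcor were 0.51 and 0.96 at day 14 and 0.76 and 0.63 at day 28. All 4 controls lay above all 4 OVA arrays of day 28, and they overlapped the OVA arrays of day 14. Against control at day 28, Bcor differed by -0.47 ± 0.15 (SE, log2; 95% interval -0.81 to -0.14), a 1.39-fold lower mean that just missed the threshold (adjusted p = 0.0583, limma). At that day 14.1% of all features passed, 7.44% with OVA higher and 6.61% with OVA lower, and 23.1% were lower in OVA without overlap. This comparison shares the 4 OVA arrays of day 28 with the one that picked Bcor. The direction held in 26 of 26 alternatives, with differences from -0.54 to -0.41, and Bcor passed in only 10 of them. Several alternatives change only the filter, the estimate of the spread or the arrays of other groups, and so could not turn the direction. Without control day 28 replicate 1 the difference was -0.41, which left 1 control of that day, assumed to vary like the other groups.

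At day 14 Bcor did not differ from control beyond the spread, with a log2 difference of 0.19 ± 0.15 (SE; 95% interval -0.14 to 0.52; adjusted p = 0.591, limma). That difference turned to -0.06 with spike-in scaling and to -0.03 without control day 14 replicate 1. Between the 2 control groups, which lay on 1 slide, it was -0.03 ± 0.18 (SE; 95% interval -0.42 to 0.35; adjusted p = 0.962, limma).

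The signal of the Bcor probe before scaling showed no such separation. It was 502.3 to 722.2 units on the OVA arrays of day 28, 479.2 to 564.1 on those of day 14 and 491.0 to 621.0 on the controls, so all groups overlapped. The OVA arrays of day 28 thus stood apart in the signal relative to the 75th percentile of the array, which was higher there, and not in the signal itself. On the log2 scale their unscaled mean was 0.19 above control at day 28 and 0.17 above OVA at day 14, opposite in sign to the scaled differences. Under each of 6 ways of scaling or background correction, the level of Bcor at day 28 was below that of day 14 in OVA, by -0.70 to -0.58 on the log2 scale.

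**Figure D2:**
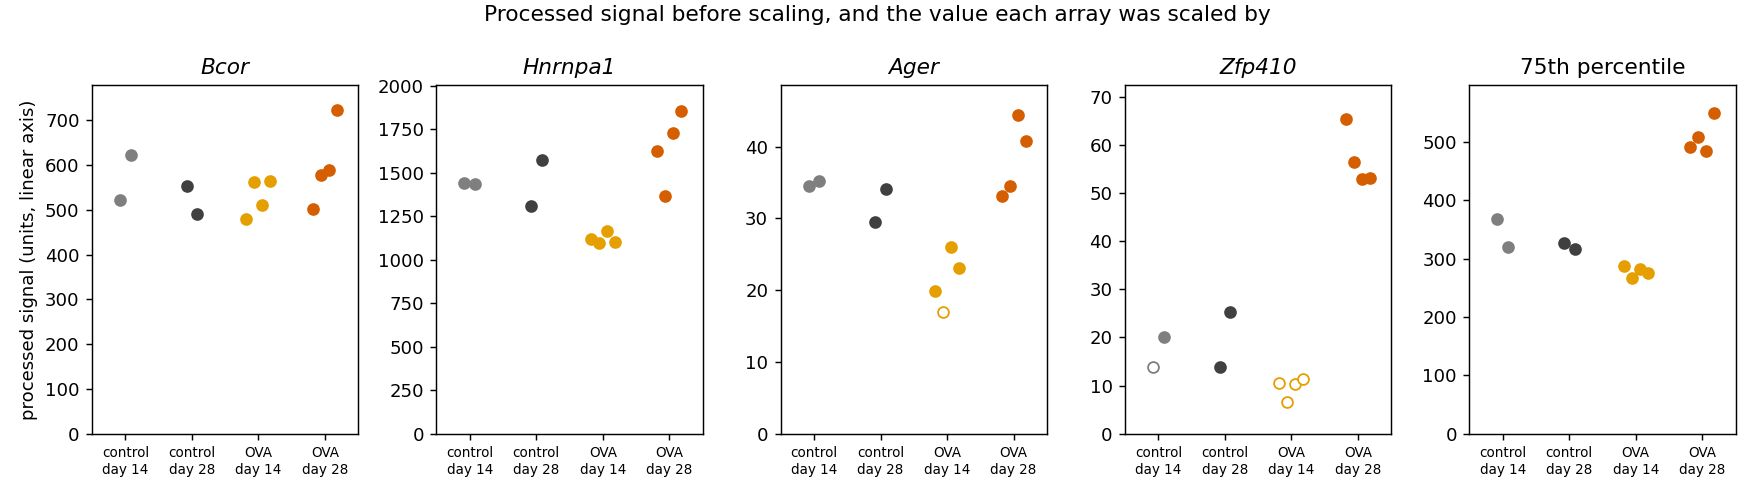
Processed signal in scanner units before scaling, on a linear axis from 0, for the 4 probes on each array, and on the right the 75th percentile by which each array was scaled. Open points were not well above background. The percentile was 483.8 to 549.3 on the OVA arrays of day 28 and at most 368.1 elsewhere, while the Bcor signal overlapped between all groups and that of Zfp410 on the OVA arrays of day 28 (52.8 to 65.4) lay above all others.

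The Zfp410 transcript (NR_045615, chromosome 12) went the other way and was dim. Its probe had 1 spot, which was well above background on all 4 OVA arrays of day 28, on both controls of day 28, on 1 of 2 controls of day 14 and on none of 4 OVA arrays of day 14. It entered the test through both groups of day 28. The processed signal was 65.4, 56.3, 52.8 and 53.0 units on the OVA arrays of day 28, and 10.6, 6.69, 10.2 and 11.3 on those of day 14. The controls gave 13.8 and 20.1 units at day 14 and 13.9 and 25.3 at day 28. The OVA arrays of day 28 were thus the highest 4 of the 12 before scaling. Those 4 arrays were also brighter as a whole, so this rank alone cannot tell the probe from the brightness of the slide. The median pixel is another reading of the same spot and scan, and so no separate check. It was 93.0 to 96.0 units over a local background of 24.5 to 28.0 on those 4 arrays. On the OVA arrays of day 14 it was 35.0 to 37.5 over 18 to 22.

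After scaling, Zfp410 stood at -3.16 ± 0.19 (SD, n = 4) in OVA and at -4.10 ± 0.64 (SD, n = 2) in control spleens at day 28. The OVA and control arrays of that day did not overlap, as in 19.1% of all features with OVA higher. The difference of 0.94 ± 0.28 (SE, log2), or 1.92-fold, is one by which Zfp410 was picked. The 2 controls stood at -4.56 and -3.65. Without the first the difference was 0.48 and without the second it was 1.39, so the 2 controls decide its size.

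The mean of Zfp410 on the OVA arrays of day 14 was -4.87 ± 0.31 (SD, n = 4), the mean of signals none of which was well above background. For a bound, each of those arrays was set at its lowest signal well above background, or at the probe's own signal where that was higher. The OVA mean of day 28 was then at least 1.85-fold higher than that of day 14. This bound is nominal, since those lowest signals are taken over all features of an array. They stood at -4.52 to -3.01 on the 4 arrays, and the -3.01 lay above all OVA levels of day 28 but the -2.91 of replicate 1. The OVA arrays of the 2 days did not overlap in measured level, as in 15.7% of all features with day 28 higher. Normexp background correction with 50 units added, an amount near or above the probe's own signal, took the log2 differences to 0.02 against control at day 28 and to 0.00 between the OVA groups. With no units added, a setting chosen after seeing the data, they were 0.68 and 0.94.

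For OVA against control at day 14 no fold is given for Zfp410, because no OVA array measured it. The measured means were -4.87 and -4.36 ± 0.53 (SD, n = 2), and the difference did not pass (adjusted p = 0.434, limma). Since only 1 of the 2 controls of that day was well above background, this test cannot decide whether the transcript differed. Between the 2 control groups the log2 difference was 0.26 ± 0.32 (SE; 95% interval -0.44 to 0.97; adjusted p = 0.817, limma), with levels of -4.74 and -3.99 at day 14. Leaving out control day 14 replicate 1 turned that difference to -0.11, and leaving out control day 28 replicate 2 turned it to -0.19.

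The Hnrnpa1 transcript (NR_104427, chromosome 15) was well above background on all 12 arrays. Its levels on the OVA arrays of day 28 were 1.72, 1.43, 1.83 and 1.75. On the OVA arrays of day 14 they lay close together, at 1.96, 2.04, 2.05 and 2.00. The 4 OVA arrays of day 28 lay below all other arrays. Over all features, 21% were lower in OVA at day 28 than at day 14 without overlap.

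Between the OVA groups, a comparison by which Hnrnpa1 was not picked, the transcript fell from 2.01 ± 0.04 (SD, n = 4) at day 14 to 1.69 ± 0.18 (SD, n = 4) at day 28. The log2 difference was -0.33 ± 0.11 (SE; 95% interval -0.56 to -0.09), or 1.25-fold (adjusted p = 0.0347, limma). Of the 2 genes tested here, Hnrnpa1 passed and Ager did not. Over all features 19.1% passed with day 28 lower and 15% with day 28 higher. Of the features that passed, 43.9% were higher at day 28, a share that spike-in scaling turned to 71.6%. The comparison shares the OVA arrays of day 28 with the one that picked Hnrnpa1. The direction held in 26 of 26 alternatives, several of which change only the filter, the spread or the arrays of other groups and could not turn it. The call was kept in 15 of the 26. It was lost, among others, with quantile normalization (-0.26, adjusted p = 0.0782), spike-in scaling (-0.21, adjusted p = 0.254) and the replicate block (adjusted p = 0.0562). It was also lost in 6 of the 8 fits that left out 1 OVA array, namely each of the 4 of day 14 and replicates 1 and 2 of day 28, with adjusted p from 0.0523 to 0.0935.

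The control levels of Hnrnpa1 were 1.97 and 2.17 at day 14 and 2.01 and 2.31 at day 28. Against control at day 28, by which Hnrnpa1 was picked, OVA was lower by -0.48 ± 0.13 (SE, log2), or 1.39-fold. The groups did not overlap, as in 23.1% of all features with OVA lower. The day 28 difference was -0.63 without control day 28 replicate 1 and -0.32 without replicate 2. At day 14 OVA and control overlapped and differed by -0.06 ± 0.13 (SE, log2; 95% interval -0.34 to 0.23; adjusted p = 0.879, limma), which turned to 0.04 without control day 14 replicate 2. The 2 control groups differed by 0.09 ± 0.15 (SE; 95% interval -0.24 to 0.42; adjusted p = 0.865, limma), and by -0.03 with spike-in scaling.

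Before scaling, the Hnrnpa1 signal was 1368 to 1854 units on the OVA arrays of day 28, 1097 to 1166 on those of day 14 and 1312 to 1574 on the controls. In unscaled signal the OVA arrays of day 28 were therefore above those of day 14, opposite to the scaled level. Against control at day 28 the unscaled OVA mean was 0.18 higher on the log2 scale, with overlap, also opposite to the scaled level. Relative to the array's 75th percentile, to quantiles, to spike-ins or after normexp, the OVA level of day 28 was below that of day 14 in each case, by -0.33 to -0.21 on the log2 scale.

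The 2 spots of a probe agreed closely for both bright transcripts. Over 12 arrays the median difference between the spots was 0.02 on the log2 scale for Bcor and also 0.02 for Hnrnpa1, and the largest was 0.07 and 0.13. Ager and Zfp410 had 1 spot each, so no such check could be made for them.

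The Ager transcript (NR_073173, chromosome 17) was dim, and the mean of its scaled level was lower in OVA than in control spleens on both days. It was well above background on 11 of 12 arrays, all but OVA day 14 replicate 2. Its levels were -3.41 and -3.18 on the controls of day 14 and -3.46 and -3.21 on those of day 28. On the OVA arrays they were -3.85, -3.98, -3.44 and -3.58 at day 14 and -3.89, -3.88, -3.44 and -3.75 at day 28. At day 14 the measured levels of the groups did not overlap, as in 6.89% of all features with OVA lower. The -3.98 of OVA replicate 2 was not well above background. At day 28 OVA replicate 3 lay above control replicate 1.

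At day 14, the comparison by which Ager was picked, the OVA mean was -3.71 ± 0.25 (SD, n = 4), with 1 of the 4 arrays not well above background. With that array set at its lowest signal well above background, a nominal -3.01 that lay above both controls, the OVA mean was -3.47. The control mean was -3.30 ± 0.16 (SD, n = 2), and the measured log2 difference was -0.41 ± 0.17 (SE). It turned to 0.02 with normexp and 50 units added and was -0.21 with no units added. In the comparison of day 28, by which it was not picked, the difference was -0.40 ± 0.17 (SE; 95% interval -0.78 to -0.02) and did not pass (adjusted p = 0.145, limma). It kept its direction in 25 of 25 alternatives, from -0.57 to -0.28. Several of these change only the filter, the spread or the arrays of other groups and could not turn it. The difference passed in 2, normexp with 50 units added (adjusted p = 0.00606) and the replicate block (adjusted p = 0.0329). All 4 controls of both days lay on the same slide.

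Ager did not differ between days beyond the spread. In OVA the log2 difference was -0.03 ± 0.14 (SE; 95% interval -0.34 to 0.28; adjusted p = 0.884, limma), and its sign turned in 6 of 25 alternatives, for example to 0.09 with spike-in scaling. With normexp and 50 units added it was -0.42 (adjusted p = 0.000436). In control it was -0.04 ± 0.20 (SE; 95% interval -0.48 to 0.40; adjusted p = 0.959, limma), and it turned to 0.05 with quantile normalization. The unscaled signal of the spot was 33.1 to 44.5 units on the OVA arrays of day 28, 16.95 to 26.1 on those of day 14 and 29.5 to 35.3 on the controls. Before scaling, the OVA arrays of day 14 were thus the lowest 4 and those of day 28 overlapped the controls. The unscaled mean at day 28 was higher in OVA (38.2 units) than in control (31.8 units), opposite to the scaled level.

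None of the 4 genes passed between the controls of both days. In OVA against control at day 14 none of the 3 tested did, a test that could not decide for Zfp410, which no OVA array of that day measured. In those comparisons 0.00138% and 0.0676% of all features passed (1 and 49 of 72515, limma, with 7461 and 10678 at an unadjusted p under 0.05), so that a lack of calls among a few genes was near the background. Between the controls the arrays of all 4 genes overlapped, while those of 37% of all features did not.

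**Figure D3:**
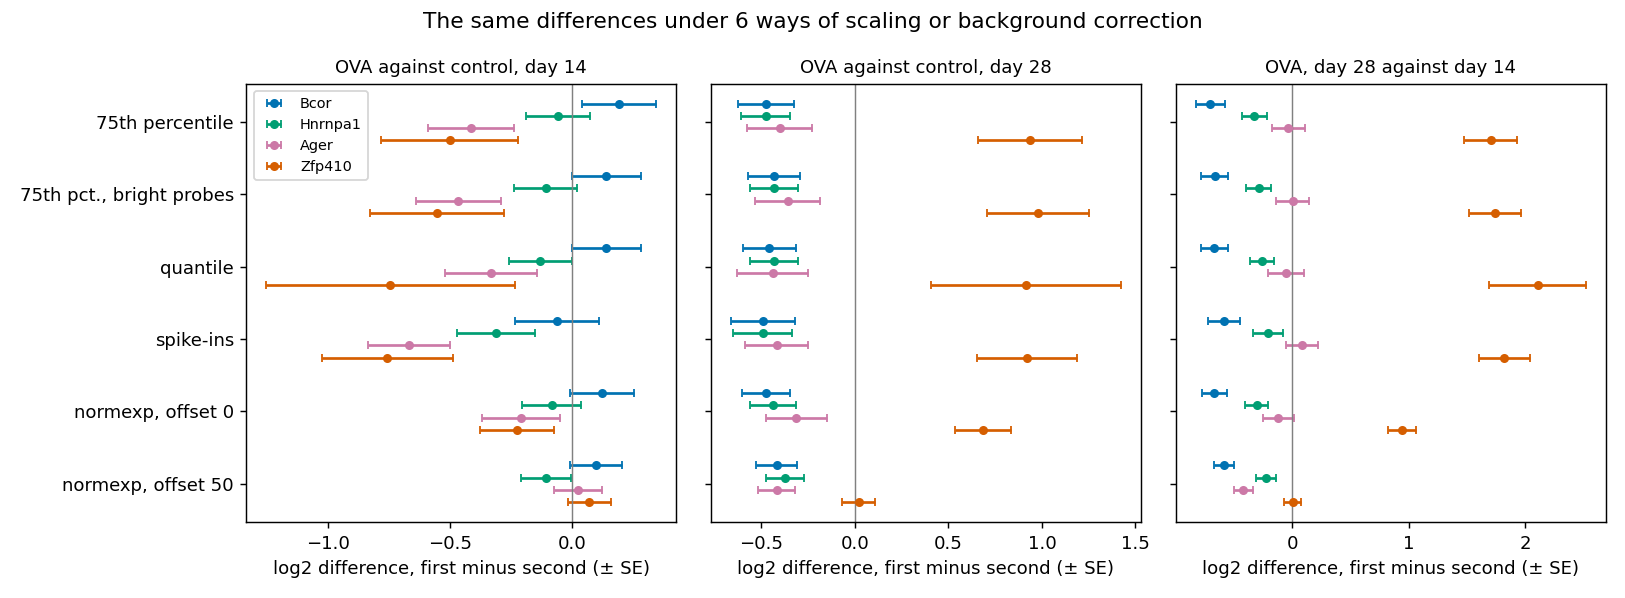
Log2 differences of the 4 transcripts in 3 comparisons, first group minus second, with bars for ± SE, under 6 ways of scaling or background correction in rows. Bcor and Hnrnpa1 lie below 0 in each row of both comparisons with OVA day 28. Zfp410 lies at 0.94 and 1.70 in the top row and at 0.02 and 0.00 in the bottom row of the same comparisons. The 1.70 rests on OVA arrays of day 14 that did not measure it, against a nominal bound of at least 0.88. In OVA against control at day 14 Bcor, Ager and Zfp410 each turn sign in 1 row.

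Across the 12 arrays, which share groups, slides and scaling, Bcor and Hnrnpa1 had a Pearson r of 0.71, Hnrnpa1 and Ager one of 0.65, and Bcor and Ager one of 0.26. Zfp410 is left out here, since 5 of the 12 arrays did not measure it. The genes were picked for differences between these groups, so these values only describe the 12 arrays.

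Among 164 other tested genes with a descriptive symbol (Gm, LOC, Rik and clone names were left out), those most like each transcript over the 12 arrays were found by Pearson r. For Bcor these were Chaserr (0.93), the non-coding neighbour of the remodeller gene Chd2, Atad3aos (0.88) and Prr33 (0.88). For Hnrnpa1 they were Celrr (0.87), Prr33 (0.87) and a non-coding transcript of Hikeshi (0.86), whose protein carries HSP70 into the nucleus. Prr33 stood in both lists. For Ager they were Rab11fip4os1 (0.86), Mnd1-ps (0.74) and Snhg7 (0.73). For Zfp410 they were Zeb2os (0.93), a non-coding transcript of Smim10l1 (0.91) and Gsdmcl2 (0.89), values that include the 5 arrays on which Zfp410 was not well above background.

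Beside these 4, the array held non-coding transcripts of 34 other protein-coding genes, of which 28 were bright enough in at least 1 whole group to be tested. In OVA at day 28 against day 14, 5 rose and 6 fell (39.3%, against 34.1% of all features), with a median log2 difference of -0.10, against -0.06 over all features. Smim10l1 rose by 1.04 ± 0.11 (SE, log2; adjusted p = 8.99e-05, limma), or 2.05-fold. Cep41, a centrosome gene, rose by 0.53 ± 0.15 (adjusted p = 0.0168), and Khdrbs1, which encodes the RNA-binding splicing regulator Sam68, rose by 0.50 ± 0.10 (adjusted p = 0.00358). The lowest differences were those of 1810009A15Rik (-0.63 ± 0.09, adjusted p = 0.000411), of Hipk1, a nuclear kinase gene (-0.45 ± 0.11, adjusted p = 0.0109), and of Rp2, a gene of retinal degeneration (-0.44 ± 0.11, adjusted p = 0.00819). With spike-in scaling 6 rose and 2 fell and the median turned to 0.01, and with normexp and 50 units added 6 rose and 12 fell. Cep41 turned to -0.06 (adjusted p = 0.537) with normexp and 50 units added, and Hipk1 did not pass with spike-in scaling (adjusted p = 0.0636).

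In OVA against control at day 28, 5 of the 28 rose and 1 fell (21.4%, against 14.1% of all features), with a median of 0.00, against -0.03 over all features. Smim10l1 rose by 0.60 ± 0.13 (SE, log2; adjusted p = 0.0151, limma), Khdrbs1 by 0.46 ± 0.12 (adjusted p = 0.0319) and Scnn1b by 0.46 ± 0.12 (adjusted p = 0.0294). The 1 that fell was 1810009A15Rik (-0.36 ± 0.10, adjusted p = 0.0406). With normexp and 50 units added 5 rose and 6 fell. Leaving out either control of day 28 left none of the 28 passing, and with spike-in scaling, with the replicate block or with no filter on dim probes 2 rose and 0 fell. At day 14 and between the controls none of the 28 passed, by limma. The transcripts of Khdrbs1 and Hnrnpa1, both from genes of splicing regulators, thus stood on opposite sides of 0 in OVA at day 28 against day 14 (0.50 and -0.33). That of Rbmx, also a gene of an RNA-binding protein, differed by 0.11 ± 0.10 (SE) and did not pass (adjusted p = 0.42, limma). Hnrnpa1 was picked on levels that include the OVA arrays of day 28, and the contrast between these genes was not tested.

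**Figure D4:**
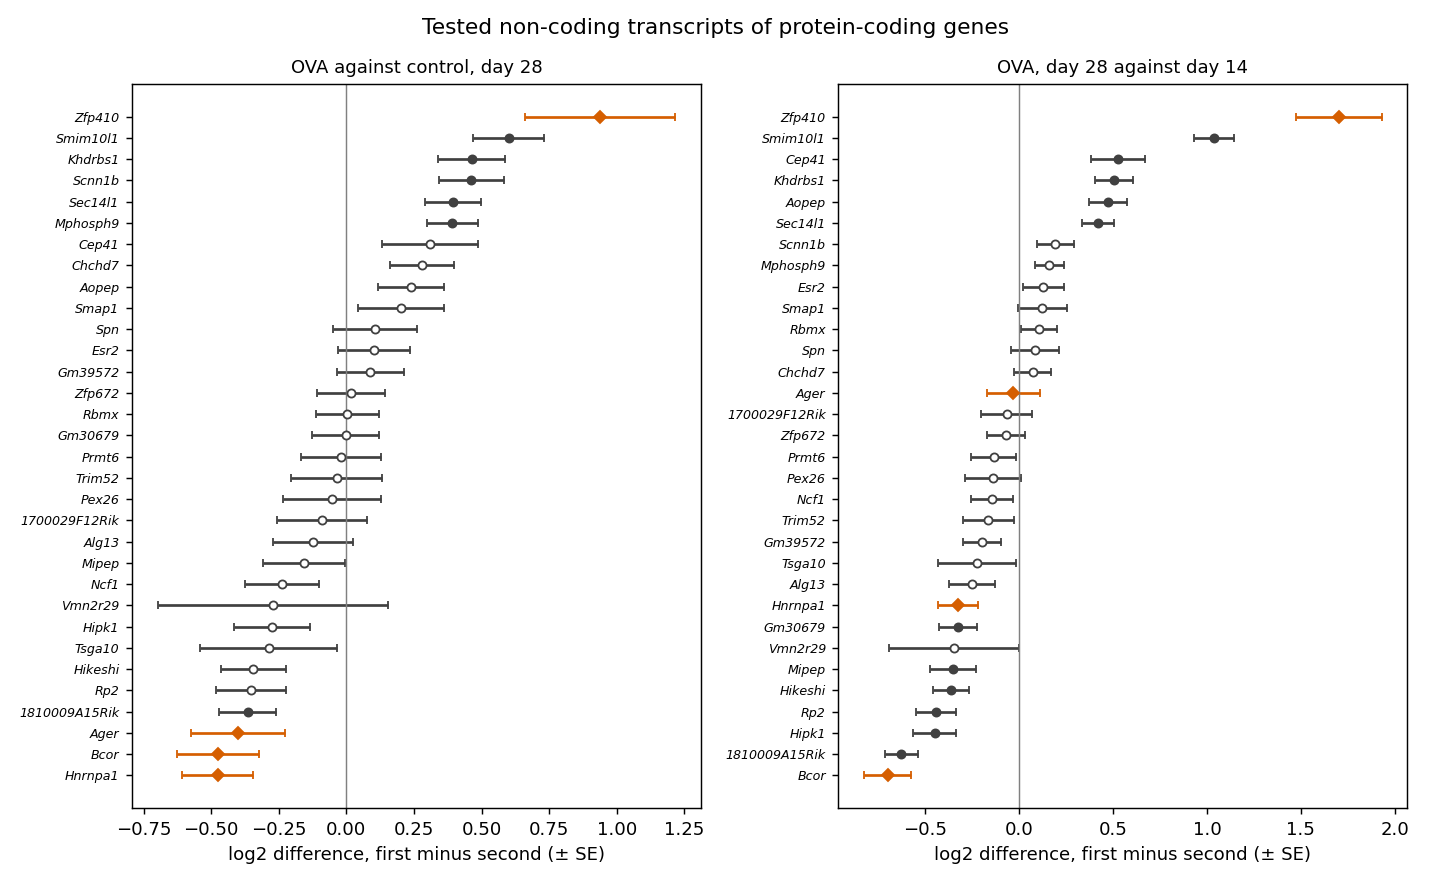
Log2 differences with bars for ± SE of the 28 other tested non-coding transcripts of protein-coding genes (circles, filled where the adjusted p was under 0.05, limma) and of the 4 described here (orange diamonds). All diamonds are filled, whether or not a test was given or passed. In OVA at day 28 against day 14 Zfp410 is drawn at its measured 1.70, but its OVA arrays of day 14 did not measure it. The nominal bound is at least 0.88, so its place above Smim10l1 (1.04) is not settled. Bcor is drawn at -0.70, and both were picked on that comparison.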

How the data were processed

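The scanner files hold spot intensity on a linear scale, background-corrected with Feature Extraction 11.5.1.1 from Agilent, as the file headers record and the authors deposited; the submitters' processing notes name version 9.1. The flags for well above background and outliers are other columns the authors deposited with it. The deposited table of catalogue probes holds none of these 4 probes and was not used. From the processed signal, log2 was taken and each array's 75th percentile over non-control spots subtracted; control and outlier spots were left out and spots of a probe averaged. RefSeq accessions in probe names, without version, were matched to a table of GRCm38.p6: 4658 of 13019 matched, for 4290 genes, and the probe of highest mean was kept per gene. A feature was tested if all arrays of 1 or more groups were well above background (72515 of 97095), in 1 limma 3.58.1 model (R 4.3.3) with the 4 groups as terms, eBayes and Benjamini-Hochberg adjustment over all features, with an adjusted p under 0.05 as threshold. The script was tested on simulated data. The files have no mean signal, so normexp used the median signal and its local background. The members, lists and named genes were chosen with earlier results of these data known. The named genes are the 4 members, the 3 most alike of each, and the 3 highest and 3 lowest passing other non-coding transcripts of coding genes, without overlap. Rbmx, given beside Khdrbs1 and Hnrnpa1, was named outside this rule. Alternatives were another background correction, 3 other scalings, the filter on dim probes, outlier spots, the model and each array left out.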

Additional observations from a re-analysis of the deposited data

Results flagged for a closer look

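For Bcor each OVA array of day 14 lay above the mean of its controls, replicate 1 barely (0.737 against 0.732), and each OVA array of day 28 below the mean of its own. The day 14 difference (0.19) did not pass (adjusted p = 0.591, limma) and its sign turned with spike-in scaling (-0.06) and without control day 14 replicate 1 (-0.03). The effect at day 28 minus that at day 14 was -0.67 on the log2 scale. For Zfp410 each OVA array of day 14 lay below its controls' mean and each of day 28 above, with 1.44 for the same difference, though none of the OVA arrays of day 14 measured it. Neither difference was tested, since it contains a comparison by which the gene was picked. Of 8 OVA groups checked (4 probes on 2 days), none had an array flagged by its relative gap, a check that can flag little with 4 arrays. The widest relative gaps were 0.748, for Zfp410 on OVA day 14 replicate 2, and 0.728, for Hnrnpa1 on OVA day 28 replicate 2. Without the latter array, Hnrnpa1 in OVA between days was -0.24 and did not pass.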

How the results depend on the processing

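The differences of the 4 transcripts, the counts, and the differences named among the other non-coding transcripts were recomputed under other settings (1 of them, normexp with no units added, chosen after seeing the data) and without each array in turn. The correlations, the bound of Zfp410 and the Ager mean with 1 array set at its lowest signal were not. Requiring probes bright on all 12 arrays excludes Ager and Zfp410. A lone control left in a day was assumed to vary like the other groups. The slide could not be separated from the OVA groups, Zfp410 and Ager lie near background, and 2 controls a day limit the precision. Where no reason is given below, the cause was not tested.

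Bcor in OVA against control at day 28 passed the threshold with normexp and 50 units added (-0.42), quantile normalization (-0.46), probes bright on all 12 arrays (-0.47), array weights (-0.49), trend and robust (-0.47), only the groups compared (-0.47) and normexp with no units added (-0.48). At day 14 it was -0.062 with spike-in scaling. Hnrnpa1 in OVA at day 28 against day 14 no longer passed with quantile normalization (-0.26), the percentile over bright probes (-0.29), spike-in scaling (-0.21), no filter on dim probes (-0.33) and the replicate block (-0.33). Between controls it was -0.027 with spike-in scaling. Ager with normexp and 50 units added was 0.023 at day 14 and -0.42 at day 28 against control, -0.42 in OVA between days and 0.022 between controls. It was -0.67 at day 14 with spike-in scaling and -0.57 at day 28 with the replicate block. In OVA between days it was 0.0067 with the percentile over bright probes and 0.085 with spike-in scaling, and between controls 0.053 with quantile normalization. Zfp410 with normexp and 50 units added was 0.071 and 0.021 against control at days 14 and 28. In OVA between days it was 0.0037 with that setting, 2.10 with quantile normalization and 0.94 with normexp and no units added.

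Leaving out 1 array gave Bcor -0.034 to 0.42 in OVA against control at day 14, -0.54 to -0.41 at day 28 and -0.26 to 0.19 between controls. Hnrnpa1 ran from -0.15 to 0.041 at day 14, from -0.38 to -0.24 in OVA between days and from -0.059 to 0.25 between controls. Ager ran from -0.13 to 0.059 in OVA between days and from -0.17 to 0.082 between controls, and Zfp410 from -0.19 to 0.72 between controls and from 0.48 to 1.39 against control at day 28. Of the other transcripts named, Cep41 turned to -0.056 with normexp and 50 units added. Against control at day 28, Smim10l1 passed in 23 of 26 settings, Scnn1b in 19, Khdrbs1 in 18 and 1810009A15Rik in 13, and none of these 4 passed when either control of day 28 was left out.

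The 49 features that passed at day 14 (45 higher) became 260 with normexp and 50 units added, 146 with quantile normalization, 12 with the percentile over bright probes, 453 with spike-in scaling (7.28% of them higher), 1 with no filter, 267 with probes bright on all 12 arrays, 1 with array weights, 232 with trend and robust, 0 with the replicate block, 0 with only the groups compared and 97 with normexp and no units added. The 10191 at day 28 (5395 higher) became 27651 with normexp and 50 units added (22.9% higher), 6514 with spike-in scaling (55.8% higher), 5943 with no filter and 6652 with the replicate block. The 24708 in OVA between days (10855 higher) became 47594 with normexp and 50 units added (19.5% higher) and 19541 with spike-in scaling (71.6% higher). The 1 between controls became 3 with normexp and 50 units added, 2 with quantile normalization, spike-in scaling, probes bright on all 12 arrays, trend and robust, or normexp with no units added, and 0 with array weights or only the groups compared. Without 1 array the counts were 2 to 1978 at day 14 (1978, 31.2% of them higher, without control day 14 replicate 2), 1976 to 12185 at day 28, 19050 to 26621 in OVA between days and 1 to 1562 between controls (1562, 26.2% of them higher, without control day 14 replicate 2). Deviations of same-numbered arrays correlated at -0.05 to 0.08 between the OVA groups, at 0.07 and 0.32 between OVA and control at day 14, at -0.18 and 0.16 at day 28 and at -0.08 between controls. In no pair of groups were they all above 0.1, so the numbers were not taken to pair the samples. The 2 control arrays of a day deviate from their mean by equal and opposite amounts, so this check could show little for pairs with controls. The median of all features shifted from 0.05 to -0.21 at day 14, from 0.03 to -0.09 between controls and from -0.06 to 0.05 in OVA between days with spike-in scaling. With normexp and 50 units added it shifted from -0.03 to -0.15 at day 28 and from -0.06 to -0.23 in OVA between days.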
